A study of Homo sapiens with 6 samples.

Results

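Transcript levels of 45 genes that encode histone- and DNA-modifying enzymes, and the proteins that hold these enzymes together, were compared between control and ARID1A-edited NB4 cells. The genes were taken by name, with no threshold on a measured value, and were 45 of the 52992 genes summed here. They fell into 8 classes. These were Polycomb repressive complex 2 (PRC2, 7 genes), Polycomb repressive complex 1 (PRC1, 9), the H2A deubiquitinase PR-DUB (3), the H3K27 demethylases (2), COMPASS histone H3K4 methyltransferases and partners (9), histone acetyltransferases and deacetylases with a corepressor (6), the NuRD remodeler (4) and DNA methylation enzymes (5). NB4 is an established acute promyelocytic leukemia cell line. All 6 samples were of this line and, per the study's methods, expressed Cas9 and a doxycycline-inducible single guide RNA (sgRNA), from sorted cells in which cloning is not mentioned. The LacZ group (2 samples, genotype label WT) had an sgRNA against lacZ, which the human genome lacks. The sg1 and sg5 groups (2 samples each, genotype label ARID1A-deficient) each had a different sgRNA against ARID1A. Every group was given doxycycline at 1 µg/ml for 7 days according to the labels, and the methods describe further culture without it.

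ARID1A, which has a close homologue in ARID1B, is a subunit found only in the BAF form of SWI/SNF, a complex that slides and evicts nucleosomes. SWI/SNF is known to oppose Polycomb: PRC2 methylates lysine 27 of histone H3, PRC1 ubiquitinates histone H2A, and both keep lineage and HOX genes silent. COMPASS complexes methylate H3 lysine 4 at promoters and enhancers, and EP300 and CREBBP acetylate histones at the enhancers where SWI/SNF binds. The comparison asked whether editing of ARID1A was accompanied by other transcript levels of the enzymes that work against or alongside SWI/SNF.

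Libraries held 46131178 to 54843745 estimated counts. ARID1A was first examined as a check of the labels. It held 8164 and 9617 estimated counts in the LacZ samples, 10671 and 8493 with sg1, and 5805 and 7338 with sg5. The sg1 samples were thus not lower than LacZ (log2 fold change 0.22), whereas both sg5 samples were (−0.36), and neither comparison passed (edgeR's quasi-likelihood test with Benjamini-Hochberg adjustment, adjusted p = 0.993 and 0.661). An edit of coding sequence need not lower the RNA, so these counts do not tell how much of the protein remained, and every direction below rests on the labels. Libraries sg1 replicate 1 and sg5 replicate 2 stood apart on the first principal component over all genes tested (34.4% of the variance, scores 34.3 and 46.8 against −30.3 to −11.3 in the other libraries). Promyelocyte markers were abundant, led by MPO at 5990 to 7770 TPM, a level scaled for transcript length and library size, although ELANE did not exceed 0.29 TPM. Their summed level was 8130 to 9020 TPM in LacZ, 7530 to 8060 in sg1 and 6810 to 7390 in sg5, and its part in the results was not tested. Markers of other cells were near 0 for erythroid cells (at most 0.00951 TPM summed over 3 genes) and fibroblasts (at most 0.712 TPM over 3). The B cell list of 3 genes summed to 7.48 and 10.5 TPM in LacZ, 16.5 and 16.6 with sg1, and 13.2 and 15.7 with sg5, nearly all of it CD79A, with the defining marker MS4A1 at 0.13 TPM or less. The T cell list of 3 genes summed to 12.3 to 13.7 TPM in LacZ, 15.8 to 17.7 in sg1 and 14.8 to 19.1 in sg5, nearly all of it CD3D, with CD3E at 0.041 TPM or less, and the part of these lists in the results was not tested.

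All 45 regulators were expressed highly enough to be tested, at 0.676 to 547 TPM on average over the 6 samples. The NB4 cells thus carried transcripts of every complex. DNMT1, the maintenance DNA methyltransferase, had the highest level (547 TPM), followed by the NuRD subunit MTA1 (208 TPM), MTA2 (166 TPM) and the deacetylase HDAC1 (161 TPM). The lowest were CBX7, a chromobox reader of PRC1 (0.676 TPM), and TET1, which oxidises methylcytosine (1.18 TPM). Within most classes the levels spread far more between genes than between groups, as the plot of levels by gene shows.

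**Figure D1:**
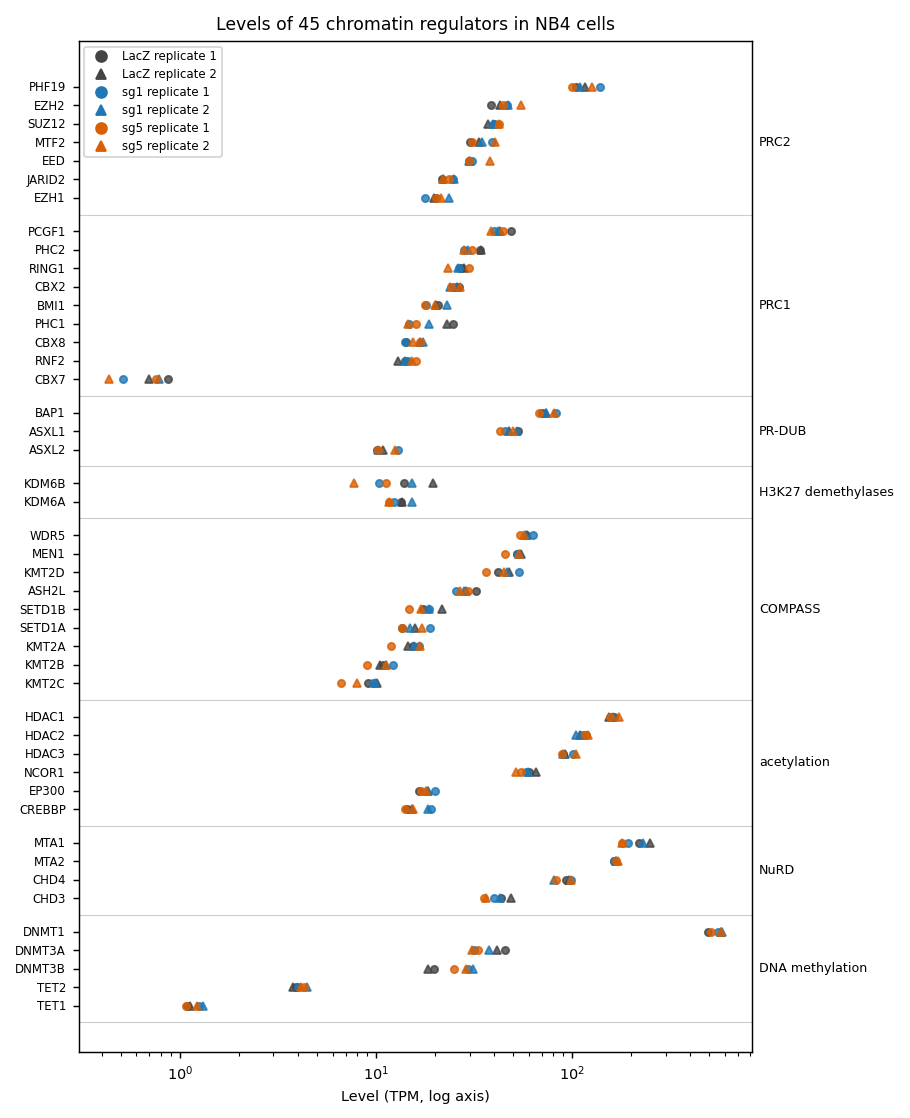
Level of each of the 45 regulators (TPM, log axis) in the 6 samples, with genes ordered by mean level within their class, color for the group and symbol for the replicate. DNMT1 lies near 547 TPM and CBX7 near 0.676 TPM, and the samples of most genes lie close together.

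Across the whole set, differences from LacZ were small. No member passed an FDR (false discovery rate) of 0.1 in sg1 against LacZ, sg5 against LacZ, or both sgRNAs joined against LacZ. Among all 18514 genes tested, 0.0378%, 0.0972% and 0.167% passed in these comparisons. Both sgRNA comparisons use the same LacZ samples and are therefore not independent. DNMT3B was nominally higher with either sgRNA and PHC1 nominally lower. With unadjusted p under 0.05, sg1 gave 1 member higher (DNMT3B) and 1 lower (PHC1) against backgrounds of 1.86% and 2.3% of all genes. For sg5 there were 1 higher (DNMT3B) and 3 lower (PHC1, KDM6B, DNMT3A) against 2.95% and 4.52%, and the same genes were named in the joined comparison, where the background was 2.89% higher and 4.32% lower. Nothing in the labels says that replicates came from separate cultures, so these p-values measure the spread between these samples, which may be technical.

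DESeq2, the tool the study used, called some of these genes. It called 1 member in sg1 (DNMT3B), 3 in sg5 (DNMT3B, PHC1, KDM6B) and 2 in the joined comparison (DNMT3B, PHC1), where it called 0.742%, 1.35% and 1.81% of all genes it tested. The joined log2 fold changes of the 2 tools were the same to within 0.01 for each of them, so the tools differed in the p-value and not in the size.

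The remaining members moved little. The median log2 fold change of the 45 was 0.07 in sg1, 0.05 in sg5 and 0.04 in the joined comparison, where the medians over all genes tested were 0, −0.01 and −0.01. In the joined comparison 40 of 45 members (88.9%) lay within 0.2 of 0 on the log2 scale, compared with 57.8% of all genes tested. The members were also more abundant than most genes, with a median of 88.9 CPM (counts scaled to library size with TMM factors) against 9.06 CPM, and among the 5619 genes between 28.3 and 219 CPM the share within 0.2 was 78.5%. The 95% intervals of 44 of 45 members, KDM6B being the other, lay within 1 log2 unit of 0, and their median half-width was 0.25. Smaller changes were not resolved with these replicates. The intervals are not adjusted for the number of genes, and larger differences could also miss the FDR of 0.1. DNMT3B (0.61) and KDM6B (−0.59) did so in the joined comparison.

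Separation of the samples gave a similar count. In normalised counts, 5 members (11.1%) were higher in all 4 ARID1A-edited samples than in both LacZ samples, namely EZH2, SUZ12, JARID2, BMI1 and DNMT3B, where 9.72% of all genes were. Another 3 members (6.67%), PHC1, PHC2 and DNMT3A, were lower in all 4, where 10.4% of all genes were. In the other 37 the groups overlapped. These shares lie near the background in both directions.

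**Figure D2:**
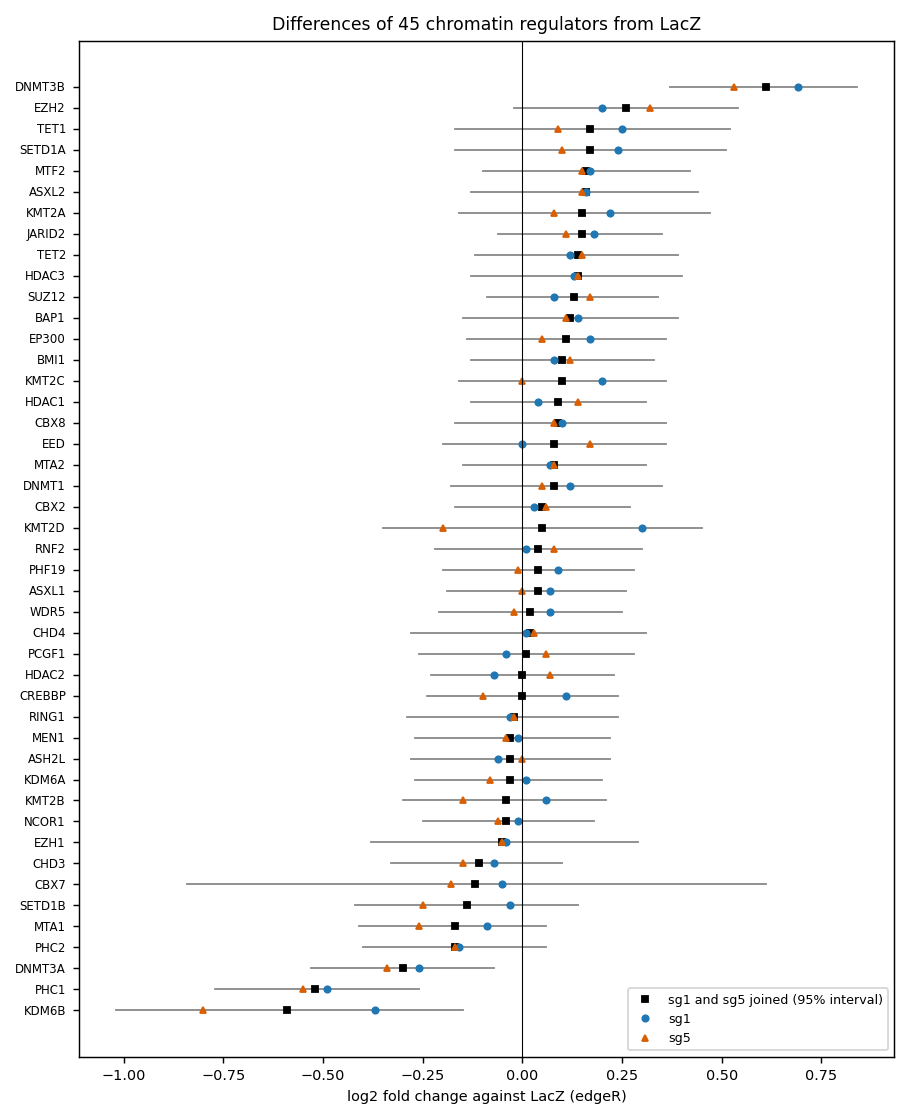
Log2 fold change against LacZ for each member, with squares for both sgRNAs joined, lines for the 95% interval, circles for sg1 and triangles for sg5. DNMT3B lies at 0.61 at the top and KDM6B, PHC1 and DNMT3A at −0.59, −0.52 and −0.30 at the bottom, with the other 41 members between −0.17 and 0.26.

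The DNA methylation class held the largest difference in the upward direction. DNMT3B (chr20:32762385-32809356, plus strand, GRCh38), a de novo DNA methyltransferase, was at 54.9 and 52.6 CPM in LacZ, 85.2 and 88.1 with sg1, and 71.6 and 83.3 with sg5. The 4 edited samples were all above both LacZ samples, and each group was narrower than the distance between them. The log2 fold change was 0.69 ± 0.12 (SE) in sg1 and 0.53 ± 0.12 in sg5, and 0.61 in the joined comparison (95% interval 0.37 to 0.84). By edgeR's quasi-likelihood test the adjusted p was 0.242, 0.349 and 0.122. By DESeq2 it was 0.000772, 0.0244 and 0.0002, and across the 14 alternative settings of the joined comparison the adjusted p for DNMT3B ran from 3.99e-07 to 1 while the log2 fold change stayed between 0.55 and 0.67.

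DNMT3A (chr2:25227855-25342590, minus strand), the other de novo methyltransferase and a gene often mutated in acute myeloid leukemia, went the other way. It was at 68.6 and 66.7 CPM in LacZ, 52.7 and 60.0 with sg1, and 56.6 and 50.7 with sg5, so the edited samples were all below LacZ. Its joined log2 fold change of −0.30 (95% interval −0.53 to −0.07) had an unadjusted p of 0.0174 and an adjusted p of 0.546 by edgeR's quasi-likelihood test, and DESeq2 did not call it either (adjusted p = 0.388, with 0.243 to 1 over the alternatives). DNMT1 lay between 1300 and 1580 CPM with overlapping groups. TET2 (joined log2 fold change 0.14) and TET1 (0.17), the demethylating dioxygenases, did not pass the test.

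**Figure D3:**
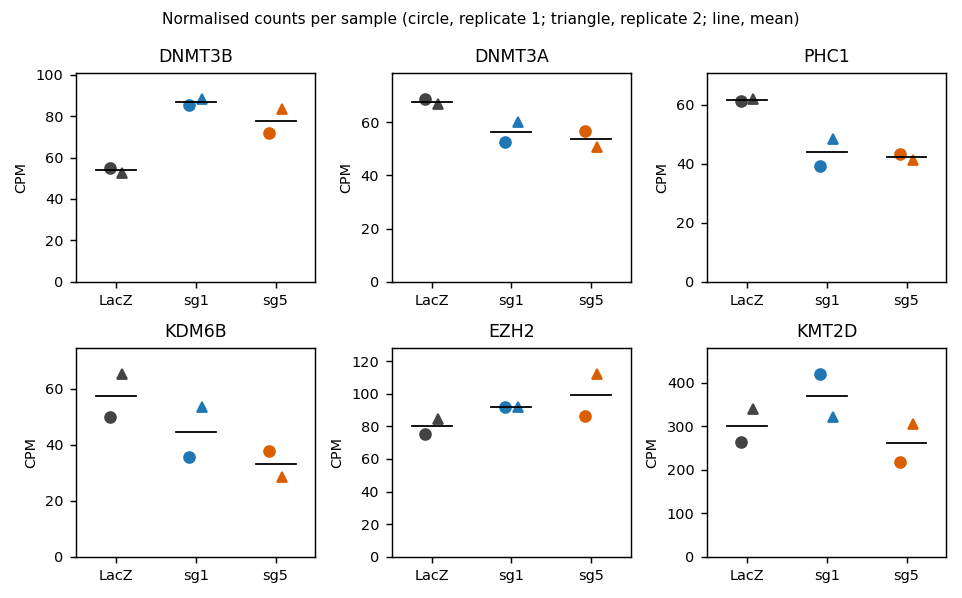
Normalised counts (CPM) of DNMT3B, DNMT3A, PHC1, KDM6B, EZH2 and KMT2D in each sample, with a line at each group's mean of 2. DNMT3B and EZH2 are higher in all 4 edited samples than in LacZ, DNMT3A and PHC1 are lower in all 4, and the groups of KDM6B and KMT2D overlap.

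PRC2 members were mostly slightly higher, and none passed the test. EZH2 (chr7:148807383-148884321, minus strand), the catalytic methyltransferase, was at 75.2 and 84.7 CPM in LacZ, 91.7 and 92.1 with sg1, and 86.6 and 112 with sg5. All 4 edited samples were above LacZ, by less in sg5 replicate 1 than in the others. The joined log2 fold change was 0.26 (95% interval −0.02 to 0.54), with an unadjusted p of 0.0686 and an adjusted p of 0.734 by edgeR's quasi-likelihood test. It was 0.15 without sg5 replicate 2 and 0.16 without sg1 replicate 1 and sg5 replicate 2. SUZ12 (0.13) and JARID2 (0.15), a core subunit and a recruiting subunit, also did not overlap between the groups. MTF2, an accessory subunit that binds unmethylated CpG DNA, had a joined log2 fold change of 0.16 with overlapping groups. EZH1, the less active homologue of EZH2, had −0.05. The median of the 7 PRC2 genes was 0.13 in the joined comparison. S phase genes were also above LacZ in the edited samples. Their mean level relative to LacZ was 0.24 and 0.07 log2 units in sg1 and 0.12 and 0.37 in sg5 (42 genes). The part of the cell cycle in the PRC2 levels was not tested. SUZ12P1, a pseudogene, held counts equal to 18.1% of those of SUZ12, so reads shared by the pair may be divided between them.

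Promoters of this class are shown because most share a motif. The class was picked for this motif, so its share below is a description and not a test. RefSeq promoter windows (GRCh38.p14, 250 bases before to 50 after the start) were found for 40 of the 45 members and searched on both strands for an E2F-type motif, spelled TTTCCCGC, TTTCGCGC, TTTGCCGC or TTTGGCGC. E2F factors drive genes of DNA replication, and their part in the PRC2 levels was not tested. The motif was present in 6 members (15%), of which 5 were PRC2 genes (5 of 7, 71.4%), compared with 1090 of 27305 genes (3.99%). By window the shares were 6 of 65 (9.23%) for members and 1164 of 35116 (3.31%) for all genes. Member windows were also richer in CpG, with a median of 30 CpG against 14, and the motif letters contain CpG themselves. Each line gives 30 bases 5′ to 3′ on the strand of the gene, with the motif or its reverse complement in capitals.
EZH2, chr7:148884272-148884301: gggctgccgcgTTTGGCGCtcggtccggtc
SUZ12, chr17:31936807-31936836: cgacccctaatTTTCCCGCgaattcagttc
MTF2, chr1:93079277-93079306: accggcagtccGCGGGAAAccaaaatggcg
PHF19, chr9:120877322-120877351: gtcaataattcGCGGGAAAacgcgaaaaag
EZH1, chr17:42745137-42745166: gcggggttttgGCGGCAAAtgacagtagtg
DNMT1, chr19:10194937-10194966: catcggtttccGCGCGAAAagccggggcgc
A match of letters is a description of these windows and not a measured binding site. Of the 6 members with the motif, EZH2 and SUZ12 were higher in all 4 edited samples and the other 4 overlapped with LacZ. JARID2 and BMI1 were higher in all 4 with no match in their windows. DNMT3B was also higher in all 4, but its window (chr20:32779602-32779901) lies inside the gene, so its annotated start was not searched. The windows with the motif in PHF19 (chr9:120877139-120877438) and DNMT1 (chr19:10194904-10195203) likewise lie inside the genes as annotated in GENCODE 29. Windows of some members without a match do so too, such as those of HDAC2, CHD4 and CHD3.

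Of the PRC1 genes, PHC1 differed most from LacZ, and none passed edgeR's quasi-likelihood test. PHC1 (chr12:8913896-8941467, plus strand), a subunit that polymerises through its SAM domain, was at 61.3 and 61.8 CPM in LacZ, 39.1 and 48.5 with sg1, and 43.2 and 41.1 with sg5. Each edited sample lay below both LacZ samples, which were almost equal. The log2 fold change was −0.49 ± 0.13 (SE) in sg1, −0.55 ± 0.13 in sg5 and −0.52 joined (95% interval −0.77 to −0.26). The adjusted p was 0.661, 0.409 and 0.24 by edgeR's quasi-likelihood test, and 0.16, 0.0515 and 0.0138 by DESeq2. Over the alternatives of the joined comparison it ran from 0.000885 to 1 and the log2 fold change from −0.59 to −0.43. Reads of PHC1 may be mixed with those of M6PR, which overlaps its end on the opposite strand. M6PR itself had log2 fold changes of −0.03 and 0.08, and whether the counting used strand is not stated in the sources used here.

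PHC2, the homologue with the higher TPM in these cells, was at 57.5 and 60.5 CPM in LacZ, 52.1 and 53.2 with sg1, and 55.9 and 48.8 with sg5. This was lower in all 4 edited samples, although the joined log2 fold change was −0.17 and did not pass (adjusted p = 0.747, edgeR's quasi-likelihood test). BMI1, a ring finger partner of the E3 ligase, was higher in all 4 by a joined log2 fold change of 0.10. The catalytic genes RNF2 (0.04) and RING1 (−0.02), and the readers CBX2 (0.05), CBX8 (0.09) and CBX7 (−0.12), overlapped. CBX7 held 1.15 to 2.16 CPM, and its 95% interval of −0.84 to 0.61 was the widest of the members. BMI1 shares sequence with the read-through gene COMMD3-BMI1, which held 3.60 to 7.10 CPM.

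Removal of the Polycomb marks is done by PR-DUB and by the H3K27 demethylases. The PR-DUB genes BAP1, the deubiquitinase, and its partners ASXL1 and ASXL2 had joined log2 fold changes of 0.12, 0.04 and 0.16, with overlapping groups in each. KDM6B (chr17:7839904-7854796, plus strand), an inducible H3K27 demethylase, was at 49.9 and 65.1 CPM in LacZ, 35.5 and 53.3 with sg1, and 37.7 and 28.4 with sg5. Both sg5 samples were below LacZ, whereas sg1 replicate 2 lay between the LacZ samples. The log2 fold change was −0.37 ± 0.22 (SE) in sg1, −0.80 ± 0.23 in sg5 and −0.59 joined (95% interval −1.02 to −0.15). It passed in sg5 by DESeq2 (adjusted p = 0.0792) and not by edgeR's quasi-likelihood test (adjusted p = 0.494), and in the joined comparison by neither (0.189 and 0.505, with 0.000673 to 1 over the alternatives). The joined value was −0.76 without LacZ replicate 1, −0.38 without LacZ replicate 2 and −0.36 without sg1 replicate 1 and sg5 replicate 2. Its sg1 replicates differed by 0.58 log2 units, more than those of any other member except CBX7. KDM6A, the X-linked homologue, had a joined log2 fold change of −0.03.

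None of the 9 COMPASS genes passed the test against LacZ or between the sgRNAs. By rank, 4 of them were among the 6 members with the smallest p between sg1 and sg5, with KMT2D alone under 0.05 unadjusted. The joined log2 fold changes ran from −0.14 (SETD1B) to 0.17 (SETD1A), with overlapping groups for all 9. KMT2A, the target of translocations in acute leukemia, had 0.15, and the scaffold genes MEN1, ASH2L and WDR5 had −0.03, −0.03 and 0.02. KMT2D (chr12:49018975-49059774, minus strand), which methylates H3 lysine 4 at enhancers, was at 263 and 340 CPM in LacZ, 420 and 321 with sg1, and 219 and 306 with sg5. Both sg1 samples were above both sg5 samples, and the LacZ samples overlapped each of these groups. The sg1 samples exceeded sg5 by 0.50 on the log2 scale (95% interval 0.03 to 0.96). This value was 0.26 without sg5 replicate 1, 0.27 without sg1 replicate 1, 0.76 without sg5 replicate 2 and 0.28 with an offset for transcript length. KMT2D was the 1 member of 45 (2.22%) with an unadjusted p under 0.05 between the sgRNAs, with a p of 0.0379 and an adjusted p of 1 by edgeR's quasi-likelihood test. Of all genes 0.972% were higher in sg1 at this threshold and 0.411% lower. KMT2B, KMT2C and SETD1B each exceeded sg5 by 0.21 in sg1, as did the acetyltransferase CREBBP, and KDM6B by 0.43, none of them past the test. The unadjusted p of these genes ran from 0.0934 (KDM6B) to 0.172 (SETD1B) by edgeR's quasi-likelihood test. Without sg5 replicate 1 the differences of KMT2B, KMT2C and SETD1B were 0.08, 0.05 and 0.07. KDM6B was at 0.10 without sg1 replicate 2, and KMT2C at 0.41 with the length offset. No member passed an FDR of 0.1 between the sgRNAs, where 0.0054% of all genes did. ASH2L overlaps STAR, which held 78.8 to 95.8 CPM, so its own counts of 43.8 to 51.7 CPM are uncertain.

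Acetylation and NuRD genes kept close to LacZ. The acetyltransferases EP300 (joined log2 fold change 0.11) and CREBBP (0.00), and the deacetylases HDAC1 (0.09), HDAC2 (0.00) and HDAC3 (0.14), overlapped between the groups, as did NCOR1 (−0.04), the corepressor that binds HDAC3. Of NuRD, which couples a remodeler with deacetylases, the ATPases CHD4 and CHD3 had 0.02 and −0.11 and MTA2 had 0.08. MTA1 was at 235 and 256 CPM in LacZ, 215 and 247 with sg1, and 210 and 201 with sg5. The sg5 samples were below LacZ and the sg1 samples were not clear of it, and the joined log2 fold change was −0.17 (adjusted p = 0.749 by edgeR's quasi-likelihood test).

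Balance between related enzymes was compared through the TPM ratio of 17 pairs within each sample, which removes anything that scales both genes alike. The ratio of DNMT3A to DNMT3B was 2.29 and 2.23 in LacZ, 1.07 and 1.20 with sg1, and 1.33 and 1.07 with sg5. All 4 edited samples were below both LacZ samples. These levels count all transcripts, and protein-coding ones held 49.2% to 58.0% of DNMT3A and 100% of DNMT3B. The log2 ratio differed by −0.96 (exact two-sided permutation test over 15 arrangements, p = 0.0667, the smallest the design allows, and 0.377 adjusted over the 17 pairs). PHC1 to PHC2 was 0.730 and 0.669 in LacZ, 0.524 and 0.632 with sg1, and 0.514 and 0.517 with sg5 (log2 difference −0.36, the same exact p). In 4 pairs the ratio was higher in all edited samples. These were KDM6A/KDM6B (log2 difference 0.50), SETD1A/SETD1B (0.30), RNF2/RING1 (0.22) and KMT2D/KMT2C (0.21). Each had p = 0.133 by the same exact permutation test, and 0.377 adjusted over the 17 pairs. The KMT2D/KMT2C ratio rounded to 4.68 in both LacZ replicate 2 and sg1 replicate 2. How often other gene pairs separate in this way was not counted, so the numbers of separated pairs have no background. When counts per kilobase replaced TPM, RNF2/RING1 was 0.07 and KMT2D/KMT2C turned to −0.05. In the other 11 pairs the groups overlapped, EZH2/EZH1 (0.19) among them.

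**Figure D4:**
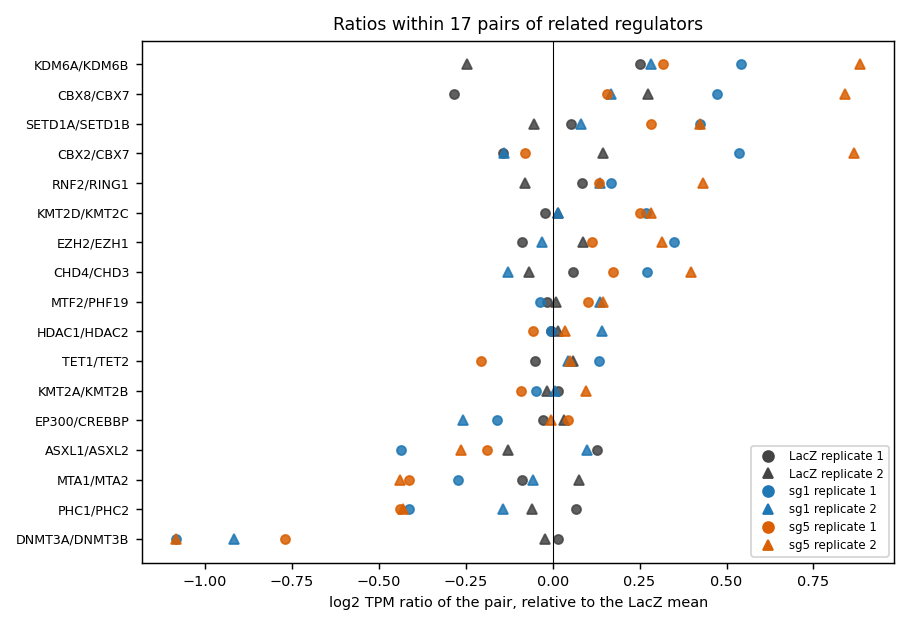
Log2 TPM ratio of each of the 17 pairs in each sample, relative to the mean of the 2 LacZ samples, with color for the group and symbol for the replicate. The 4 edited samples of DNMT3A/DNMT3B lie far to the left of LacZ, and those of KDM6A/KDM6B lie to the right.

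Single transcripts were tested to see which isoforms carried these differences. Of 454 annotated transcripts of the members, 327 were tested and none passed an FDR of 0.1 in sg1, sg5 or the joined comparison by edgeR's quasi-likelihood test, where 0% of all 78622 transcripts passed in each. In the joined comparison 15 (4.59%) had an unadjusted p under 0.05 compared with 4.32% of all transcripts. DESeq2 called 1 in sg1, and 2 each in sg5 and the joined comparison. The share of all transcripts that DESeq2 called is not given here, so these calls have no background. The largest DNMT3B transcript, DNMT3B-203, was at 10.4 and 9.53 TPM in LacZ, 16.1 and 16.6 with sg1, and 14.3 and 15.9 with sg5 (joined log2 fold change 0.70, called by DESeq2). DNMT3B-205 (0.58) and DNMT3B-202 (0.30) differed in the same direction, so the share of DNMT3B-203 ranged only from 51.5% to 57.1%. For DNMT3A the main coding transcript DNMT3A-203 differed less (−0.13) than the noncoding DNMT3A-215 (−0.90). PHC1-212, the most abundant PHC1 transcript, was at 8.04 and 8.37 TPM in LacZ, 4.17 and 6.28 with sg1, and 4.32 and 5.23 with sg5.

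The other transcript that DESeq2 called, in sg5 and joined, was MTA1-216. This retained-intron transcript of MTA1 was at 3.36 and 2.38 TPM in LacZ and 3.31 and 1.83 in sg1, but at 0 and 0.021 in sg5. It made up at most 1.71% of the MTA1 level. Much of the level of some members was not coding. Protein-coding transcripts held 8.65% to 16.9% of PCGF1, whose main transcript PCGF1-204 is a retained intron, and 27.9% and 23.3% of MTA1 in the LacZ samples. The coding share over the 6 samples was 33.9% to 46.7% for EZH1, 39.9% to 48.9% for KMT2B and 46% to 53.9% for DNMT1. The error with which shared reads were divided among transcripts is not in the values used here.

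Other genes of the same pathways were listed by name as well. Of 116 such genes, 113 were matched and 112 tested, and none passed an FDR of 0.1 in any comparison (joined median log2 fold change 0.04). At an unadjusted p under 0.05 the joined comparison gave 1 gene above and 4 below LacZ. Of all genes 2.89% were higher and 4.32% lower at this threshold. HDAC9, a class IIa deacetylase, was at 10.3 and 10.5 CPM in LacZ, 15.6 and 15.7 with sg1, and 13.7 and 13.0 with sg5 (joined log2 fold change 0.48, an unadjusted p of 0.00485 and an adjusted p of 0.363 by edgeR's quasi-likelihood test). RCOR1, the partner of the demethylase KDM1A, was at 91.4 and 125 CPM in LacZ, 72.9 and 90.1 with sg1, and 71.2 and 54.9 with sg5 (−0.60). The SWI/SNF subunit SMARCD3 was at 37.6 and 34.4 CPM in LacZ, 28.9 and 31.7 with sg1, and 30.2 and 23.3 with sg5 (−0.34). Among the 25 other SWI/SNF genes the median was 0.04, and ARID1B, the homologue of ARID1A, was at 68.0 and 72.6 CPM in LacZ, 87.6 and 78.2 with sg1, and 76.0 and 73.1 with sg5 (0.16).

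Differences between replicates were as large as those between groups for many members. In 25 of 45 members (55.6%) the level was higher in sg1 replicate 1 and in sg5 replicate 2 than in the other replicate of the same sgRNA, compared with 30.3% of all genes, and in 11 (24.4%) it was lower in both, compared with 34.0%. KMT2D was 0.39 log2 units higher in sg1 replicate 1 than in replicate 2 and 0.48 higher in sg5 replicate 2 than in replicate 1. SETD1A (0.34 and 0.42), ASXL2 (0.32 and 0.27) and CHD4 (0.29 and 0.31) followed the same order. KDM6B (−0.58 and −0.41) and CBX7 (−0.65 and −0.83) followed the reverse. The same libraries had the higher G2/M level, 0.25 and 0.38 log2 units above LacZ against 0.02 and −0.01 in their counterparts (53 genes), and the part of this in the members' levels was not tested. Fewer cells of a type and less RNA per cell cannot be told apart in such bulk samples.

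Without sg1 replicate 1 and sg5 replicate 2, DNMT3B was 0.56, PHC1 −0.43 and KDM6B −0.36 in the joined comparison and each passed edgeR's quasi-likelihood test (adjusted p = 3.99e-07, 0.000885 and 0.0128, against highest values of 1 over the other settings). That fit takes its spread from the 2 LacZ samples alone and assumes that the lone sg1 and sg5 samples vary like them.

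**Figure D5:**
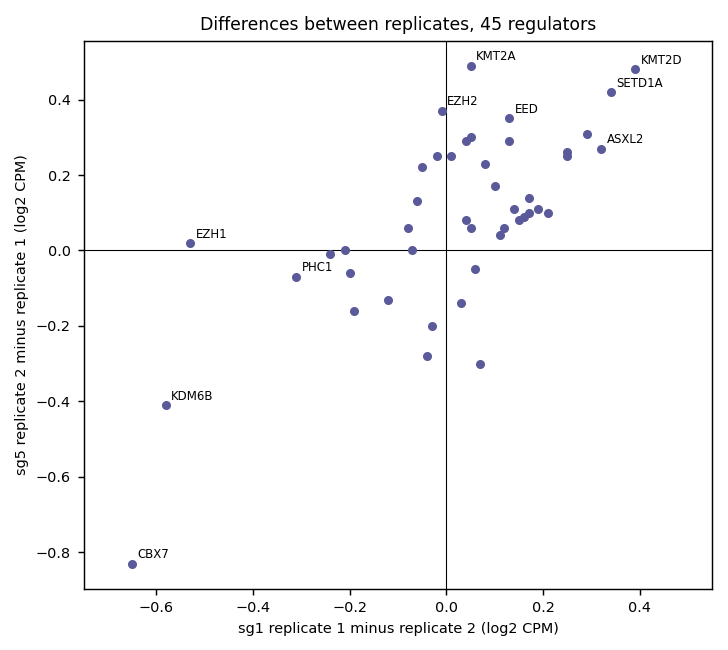
Difference between replicates (log2 CPM) for each member, sg1 replicate 1 minus replicate 2 on the x axis and sg5 replicate 2 minus replicate 1 on the y axis. Of the 45 members, 25 lie at the upper right, among them KMT2D, SETD1A and ASXL2, and 11 at the lower left, among them KDM6B and CBX7.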

How the data were processed

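Total RNA of 6 NB4 samples was sequenced from TruSeq libraries. The authors quantified reads per transcript with kallisto and deposited estimated counts, in which shared reads are divided, and TPM, which they scaled by effective transcript length. The submitters' processing notes name hg19, kallisto and DESeq2, and the human transcript set is not given in the sources used here. Of 196354 transcripts, 181857 (92.6%, 95.4% to 95.5% of counts) matched GENCODE 29 by identifier and were summed to 52992 genes. Coordinates are 1-based on GRCh38 from that match. Counts were rounded and tested with edgeR 4.0.16 in R 4.3.3 (TMM, filterByExpr with a minimum count of 10, robust quasi-likelihood F-test, group as the single term, all 6 samples), called at a Benjamini-Hochberg FDR of 0.1. Samples were grouped by their titles. CPM used TMM factors, and 95% intervals came from the same fit. The common biological coefficient of variation was 16.6%. Ratios of paired genes were compared by an exact permutation test. Alternatives included DESeq2 1.42.0, other normalisations and filters, a replicate block and samples left out.

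Members, the other lists and the named genes were chosen with earlier results of these data known. Named were the 12 members with the smallest joined p, the 6 with the smallest p between the sgRNAs and the highest and lowest level of each class. Genes of the transcripts called by DESeq2, the replicate comparison and the other pathway genes with an unadjusted p under 0.05 were named after their values were seen. Some of these pathway genes are not reported here. Promoter sequences are from RefSeq, and 5 members without an entry were CBX2, CBX8, SETD1B, ASH2L and BAP1. The entries for DNMT3B, PHF19, DNMT1, HDAC2, CHD4 and CHD3, among others, start inside the gene as annotated in GENCODE 29.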

Additional observations from a re-analysis of the deposited data

Results flagged for a closer look

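Of 46 genes examined for a lone sample among the 4 ARID1A-edited samples, 1 was set apart, where chance gives about 1 in 20. NCOR1, the corepressor of HDAC3, was at 175 and 184 CPM in sg1 and 174 and 174 in sg5. The gap of sg1 replicate 2 to the next sample was 0.862 of the range (Dixon's ratio).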

How the results depend on the processing

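Calls among the members differed between settings. As reported, none passed in any of the 4 comparisons. Without sg1 replicate 1 and sg5 replicate 2, the log2 fold change in sg5 against LacZ was −0.38 for SETD1B and −0.46 for KMT2D. In that fit sg1 exceeded sg5 by 0.50 for KDM6B and 0.55 for KMT2D. DESeq2 called 1 member in sg1, 3 in sg5 and 2 in the joined comparison, and fitting without the low-count filter called 2, 3 and 3. Leaving out 1 sample gave 0 to 1 in sg1 (DNMT3B, without either sg5 replicate), 0 to 1 joined (DNMT3B, without sg5 replicate 1) and 0 in sg5. DESeq2 called 1, 2 and 2 member transcripts, with no share over all transcripts given. The replicate numbers did not pair the samples (correlations 0.0719, 0.012 and −0.206), and the replicate block gave 0 calls in every comparison. Crossed pairing, added after seeing the data, gave 1, 3 and 3 calls. Shares of all genes called are given for the main fit and DESeq2 alone, so calls in the other settings have no background here. The members' median ran from 0.01 to 0.09 in sg1 and from −0.04 to 0.11 in sg5 with 1 sample left out, and was −0.03 in sg5 without sg1 replicate 1 and sg5 replicate 2. Members higher in all edited samples numbered 2 with library totals, 3 with TPM and 5 to 14 with 1 sample left out (8 without LacZ replicate 1, 14 without LacZ replicate 2, 9 without sg5 replicate 1). Those lower numbered 5 with TPM, 5 without the 2 libraries and 3 to 8 with 1 sample left out (8 without LacZ replicate 1, 7 without sg1 replicate 2). The share of all genes is not given for these settings. With a sample left out, any gene separates more easily, so these counts are not results about the members. ARID1A ran from −0.21 to 0.09 in the joined comparison with 1 sample left out, turning to 0.09 without LacZ replicate 2. Counts per kilobase in place of TPM turned the ratios KMT2A/KMT2B (0.19), KMT2D/KMT2C (−0.05), EP300/CREBBP (0.10) and TET1/TET2 (0.04). The cause of these shifts was not tested. No alternative run changed the direction of the 12 members with the smallest joined p in that comparison, or of the 6 with the smallest p between the sgRNAs. Genes named for their level were not run one by one. With 2 replicates a group, changes under about 0.29 log2 units, the median half-width of the unadjusted 95% interval in each sgRNA comparison, were not resolved. Larger differences also went uncalled at an FDR of 0.1, such as 0.69 for DNMT3B in sg1 and −0.80 for KDM6B in sg5.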

Other observations

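HOX genes, long known as targets of Polycomb and COMPASS, were listed by name with other such targets. Of 23 target genes 16 were tested and none passed an FDR of 0.1 in any comparison, while at an unadjusted p under 0.05 the joined comparison gave HOXA11, HOXB6 and HOXB8, all lower, where 4.32% of all genes were lower and 2.89% higher. Of the 16, 5 were lower in all 4 edited samples and 2 higher in all 4, where 10.4% and 9.72% of all genes were. HOXB8 was at 1.44 and 1.96 CPM in LacZ, 0.257 and 0.788 with sg1, and 0.554 and 0.178 with sg5 (joined log2 fold change −1.97, an unadjusted p of 0.00292 and an adjusted p of 0.322 by edgeR's quasi-likelihood test). The neighbouring HOXB9 was at 33.5 and 37.1 CPM in LacZ, 5.58 and 17.5 with sg1, and 17.7 and 3.72 with sg5. All 4 edited samples were below LacZ, the replicates of each sgRNA lay far apart, and the joined log2 fold change of −1.67 had an unadjusted p of 0.0864. HOXA10 lay between 58.4 and 62.4 CPM in the 6 samples. CDKN2A, CDKN2B, HOXB2 and HOXB4 were listed at 0 in every sample. HOXB9 and HOXA10 were chosen after their values were seen.

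Of 6 promyelocyte markers 5 were tested, and 2 of them, the granule genes AZU1 and CTSG, were lower at an unadjusted p under 0.05 with either sgRNA, where 2.3% of all genes were in sg1 and 4.52% in sg5. The median log2 fold change of the 5 was −0.17 in sg1 and −0.36 in sg5. CTSG was at 164 and 158 TPM in LacZ, 99.8 and 122 with sg1, and 119 and 94.6 with sg5.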
